A study of Homo sapiens with 16 samples.

Results

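HT1080, a human fibrosarcoma cell line, was given a single copy of a doxycycline (DOX) inducible XIST cDNA at FRT sites on different chromosomes, and in the 12q clone this copy lies within an intron of FAM222A in 12q24, antisense to that gene. The genes described here are the expressed neighbours of this site, 68 of the 22892 genes that the HiSeq expression table lists under a symbol used once. They were chosen by position, with a gene start between 98660000 and 118660000 on chromosome 12 of hg18, which is within 10 Mb of the middle of FAM222A, and by level, with a mean of at least 5 FPKM over the 6 HiSeq libraries. FPKM are fragments normalised to transcript length and to the number of mapped fragments, so they compare levels between genes per length. Of 174 genes in the window, 165 were left once the symbols that the rule leaves out were removed, and 97 of these had a mean under 5 FPKM. The level of each gene was therefore used to choose it, but not its change with DOX. Just inside the limit were MMAB (mean 5.28 FPKM), PARPBP (5.43) and PRKAB1 (5.62), and just outside it MAPKAPK5-AS1 (4.56), NUAK1 (4.38) and FBXW8 (4.38).

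XIST is the long non-coding RNA that silences most genes of the inactive X chromosome in female mammals. It spreads in cis from the locus that transcribes it, and repressive chromatin marks and the loss of histone acetylation follow. On an autosome the reach of this silencing differs between sites, and because only the chromosome copy with the transgene can be reached in cis while FPKM sum over all copies, complete silencing of that copy alone would leave the other copies measured.

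The NextSeq table holds 4 RNA libraries, namely the 12q clone without DOX (No DOX) and after 5 days of DOX, and the same pair for a clone with the XIST transgene at 1p. The HiSeq table holds 6, namely a 12q DOX library, an 8p No DOX library, 2 DOX libraries of the 8p site, a 1p DOX library and a 1p clone with an empty vector and DOX. All clones carry a constitutive Tet-repressor transgene. All are derived from single cells, the 12q clone from another Tet-repressor line than the 1p and 8p clones, so a difference between clones need not come from XIST. The labels give the HiSeq 12q library a different tag from the NextSeq 12q pair, and the 1p No DOX and 1p DOX libraries differ in their tags too. They do not say whether a tag stands for a clone or for a culture. The study lists several 12q clones by names that resemble the 12q tags. The HiSeq 12q library and the NextSeq 12q pair may therefore be of different clones. The methods of the study describe the 8p DOX libraries as being from 2 clones. The 12q and 1p pairs have 1 library per condition and so no p-value. The 8p site has 2 DOX libraries and 1 No DOX library, and its values are given without a test too. The depth of the libraries is unknown, and the tables were normalised separately and are compared only within themselves.

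The induction of XIST was seen in each clone that carries it. XIST was 3.75 FPKM in the 12q No DOX and 67.6 FPKM in the 12q DOX library of the NextSeq table, and 61.9 FPKM in the HiSeq 12q DOX library. It was 4.17 and 22.0 FPKM in the 1p pair, 23.8 FPKM in the HiSeq 1p DOX library, 3.38 FPKM in 8p No DOX, 99.0 and 89.7 FPKM in the 8p DOX libraries and 0.0705 FPKM with the empty vector. All 8 mesenchymal markers reached 1 FPKM in all 10 libraries, and PTPRC and HBB (blood) were at 0 in all of them. The NextSeq 12q DOX library stood apart, because 14 of 16 genes of pluripotent stem cells, a list chosen after the values were seen, reached 1 FPKM in it. Their summed level was 80.6 FPKM there, with LEFTY2 at 13.6 FPKM and TDGF1 at 9.99 FPKM, against 0.747 to 2.87 FPKM in the 9 other libraries. Among epithelial markers, EPCAM was 2.38 FPKM and CDH1 was 1.38 FPKM in that library, against at most 0.0497 and 0.0163 FPKM in the others. The other epithelial markers did not follow. CLDN4 was 2.06 FPKM in it but 2.96 FPKM in 12q No DOX, 1.05 and 1.04 FPKM in the 1p pair and 1.12 FPKM in HiSeq 12q DOX. KRT5 was 0 in that library. The part of this signal in the values below was not tested. The HiSeq 12q DOX library had a summed level of 1.62 FPKM of these genes, but no 12q No DOX library of HiSeq stands beside it. The endothelial gene CDH5 was 5.44 to 7.06 FPKM in the 3 libraries of the 12q site and at most 0.835 FPKM in the 7 others.

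With DOX, the 12q neighbours were lower on balance in the 12q clone. The study took a fall of 30 to 60 % in total expression as its range for silencing. It counted genes within 30 Mb of the 12q site and reported a larger share in the range there than over the genome. By allele-specific reads of its RNA sequencing it reported no significant change for this site. Its pyrosequencing assays of single genes did show allelic silencing here. For POLR3B the extent of this silencing correlated with the level of XIST across 12q clones and cultures. Within the 10 Mb used here, 11 of the 68 members (16.2 %) were in the range in the NextSeq 12q pair. Among all 7431 genes chosen by the same level, 3.4 % were in this range, and in the rest of chromosome 12 it was 13 of 353 genes (3.68 %). Of the 68 members, 47 (69.1 %) were lower and 21 higher with DOX, with a range from a 15.9 % rise to a 54.0 % reduction. Over all genes 4071 of 7431 (54.8 %) were lower. The median reduction was 8.20 % for the members and 1.48 % for all genes. On the log2(FPKM + 1) scale the median ratio of the members was -0.098 relative to all genes. These are bulk libraries, in which fewer cells with a transcript and less transcript per cell cannot be told apart.

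The same 68 genes showed no such shift relative to all genes in the clones with the transgene elsewhere. In the 1p pair, 0 of 68 members were in the 30 to 60 % range, where 0.928 % of all genes were, and the median member rose by 0.246 %. The largest change of a member there was a 19.7 % rise, of GNPTAB. In the 12q pair, 22 members were reduced by more than this 19.7 %, as were 12.4 % of all genes, and 0 rose by more, as did 3.45 % of all genes. In the 8p clone, 2 members (UTP20 and PARPBP) were in the range with the mean of the DOX libraries, against 10.8 % of all genes. The median reduction there was 5.28 % for the members and 6.15 % for all genes. Of the 68 members 40 were lower, and of all genes 61.0 %. The median log2 ratio relative to all genes was 0.0097 in the 1p clone and 0.013 in the 8p clone, so that the median member followed the median gene in both. As a rough guide to the error, the 2 8p DOX libraries differed by a median of 5.18 % over the members and by 18.9 % at most. These are HiSeq libraries described as from 2 clones, so they do not give the error of the NextSeq pairs.

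**Figure D1:**
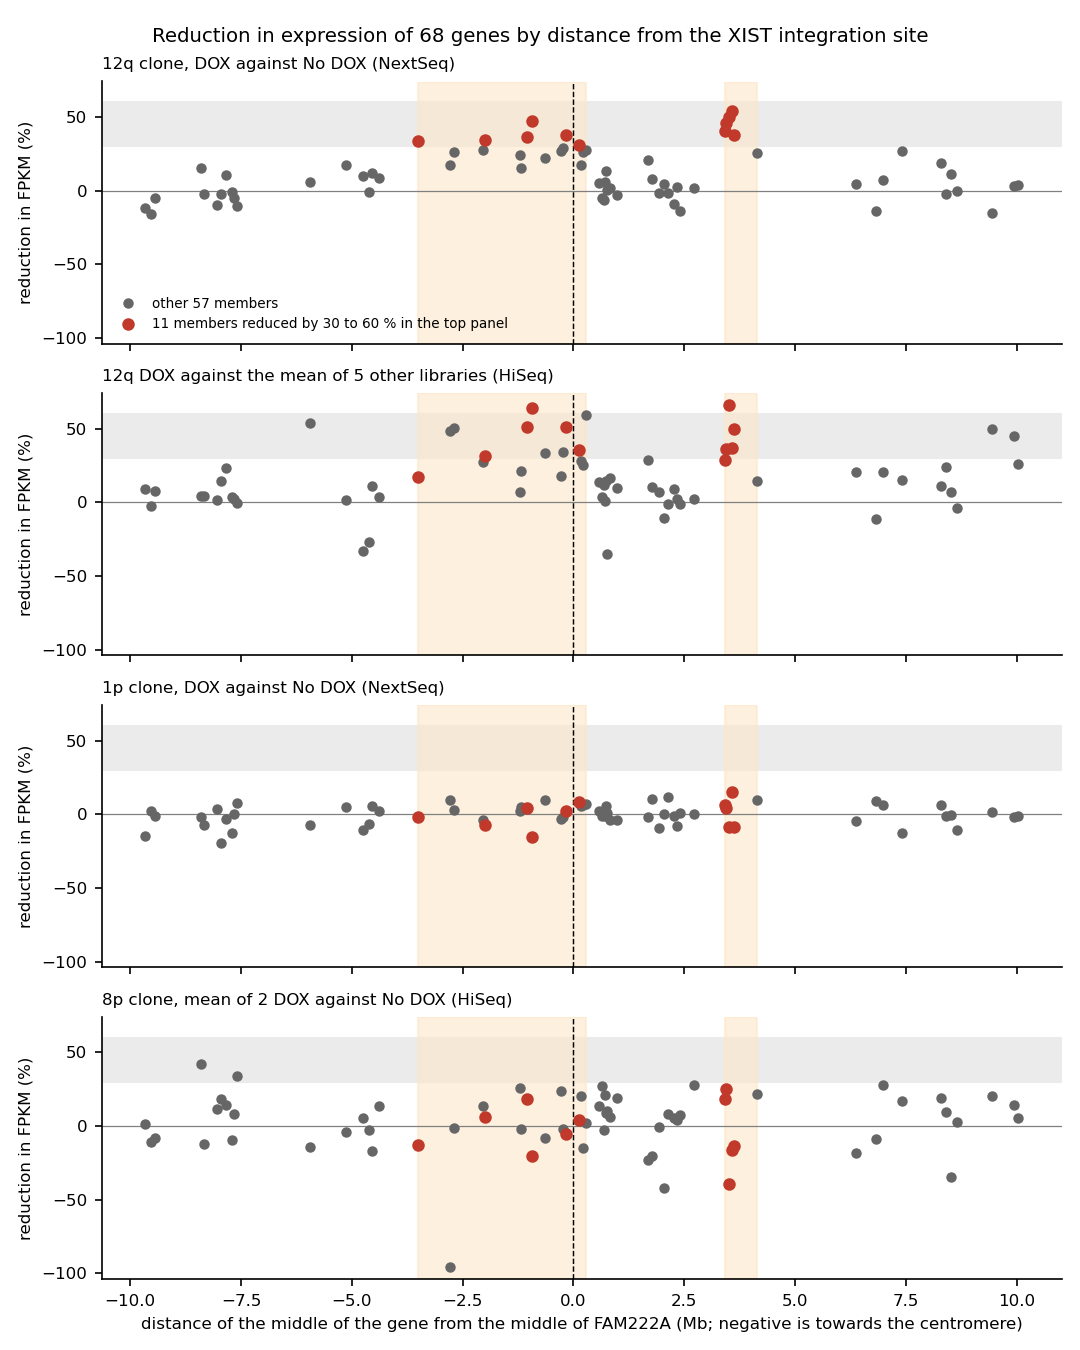
Reduction in FPKM (%) of each of the 68 genes against the distance of its middle from the middle of FAM222A (Mb, dashed line at 0), 1 panel per comparison. Grey bands mark 30 to 60 %, shaded columns the runs of reduced neighbours and red points the 11 genes in the band in the top panel. In the top panels the red points form 2 groups, and in the 1p panel all 68 genes lie between a 19.7 % rise and a 15.4 % reduction.

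The HiSeq table gave a second look at the same genes, with the lone 12q DOX library set against the mean of the 5 other libraries. Here 58 of 68 members were lower in the 12q library and 10 were higher, with a median reduction of 14.4 % (0.792 % over all genes, 0.616 % in the rest of chromosome 12). Over all genes 51.7 % were lower. In the range of 30 to 60 % were 15 members (22.1 %), with 6.55 % of all genes, and SSH1 and TPCN1 were past 60 %. The 12q value was below those of all 5 other libraries for 21 members, with 8.84 % of all genes, and above them for 3 (NOPCHAP1, WASHC4 and VPS29), with 12.0 % of all genes. In the NextSeq table, where 12q DOX stands against 3 other libraries, it was the lowest for 39 members (32.2 % of all genes) and the highest for 10 (27.1 % of all genes). This HiSeq comparison is between clones and holds no 12q No DOX library, so differences between clones and the effect of XIST cannot be told apart in it. Its libraries are also those whose mean level chose the members and the genes of the background.

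limma, fitted to log2(FPKM + 1) of 11357 genes with the lone 12q library assumed to vary like the others, called 0 of the 68 members at a Benjamini-Hochberg adjusted p of at most 0.05, where 0.15 % of all genes tested were called. Of the 5 other libraries, 3 carry the 8p transgene and are not independent. At an unadjusted p of at most 0.05 there were 6 members lower (1.61 % of all genes) and 0 higher (1.94 %). They were TPCN1, CORO1C, SSH1, MMAB, PLBD2 and NT5DC3. The largest difference was that of TPCN1 (log2 difference -1.31, SE 0.25, limma adjusted p = 0.295). The NextSeq reduction and the HiSeq difference share no library, and across the 68 members they correlated with Pearson's r of 0.61 and Spearman's rho of 0.65. Across 7363 other genes rho was 0.10. Neighbouring genes are not independent, and both comparisons have a 12q DOX library on the lower side, so this is a description only.

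**Figure D2:**
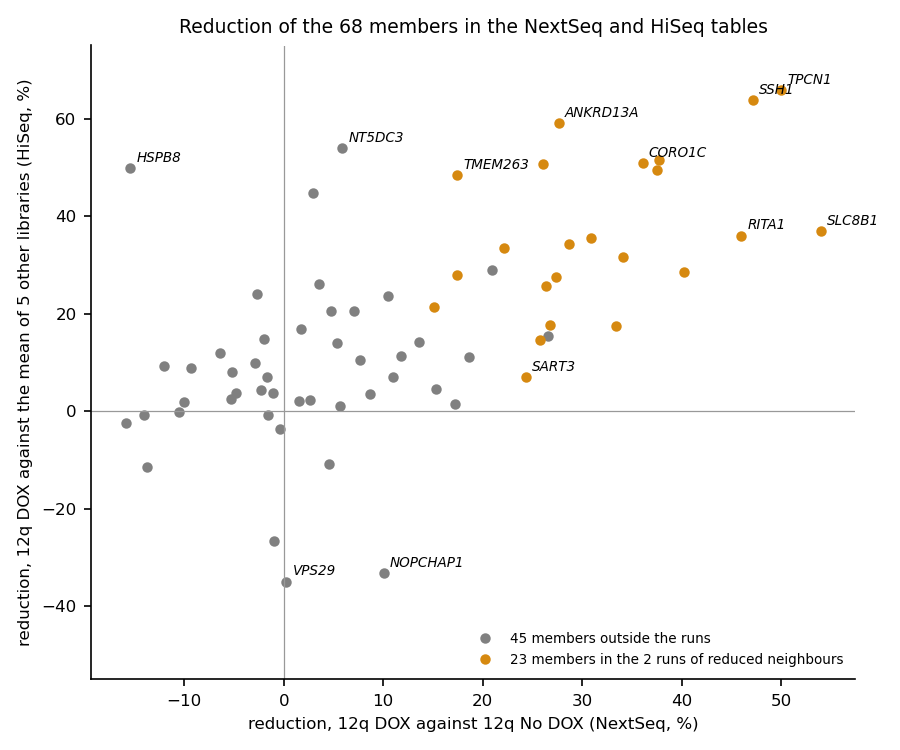
Reduction (%) of each member with DOX in the NextSeq 12q pair (horizontal) against its reduction in the HiSeq 12q DOX library relative to the mean of 5 other libraries (vertical). Orange points are the 23 genes in the runs of reduced neighbours, all of which lie above 0 on both axes, and grey points the 45 other members.

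The lower genes were not spread evenly over the window. Ordered along the arm, members reduced by at least 15 % with DOX in the NextSeq 12q pair formed 2 unbroken runs of 5 or more neighbours, and the limits of the runs were set after the values were seen. The share of all genes reduced this far was 18.8 %. The first run, of 17 members from CKAP4 to ANKRD13A, covered 3.81 Mb (chr12:105155789-108961618, hg18) and held the integration site, with genes from 3.50 Mb on its centromeric side to 0.277 Mb on its telomeric side, measured between the middles of the gene and of FAM222A. Its median reduction was 27.4 % (range 15.1 to 47.2 %). The second run, of 6 members from DDX54 to RBM19, covered 0.809 Mb (chr12:112079361-112888559, hg18) at 3.43 to 4.15 Mb on the telomeric side, with a median of 43.1 % (25.7 to 54.0 %). Between the runs lay 17 members, from ATP2A2 to PTPN11, whose median reduction was 1.56 %. The nearest of them, ATP2A2, begins 242 kb beyond the end of ANKRD13A.

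The HiSeq 12q library played no part in setting the runs. It did enter the mean of the 6 HiSeq libraries that chose the members. A gene low in this library could therefore pass through the others. The library was lower for 23 of the 23 genes in the runs, with 51.7 % of all genes, and the median reduction of the 23 was 34.4 %. It was lower by at least 15 % for 21 of them, with 21.9 % of all genes. It was below all 5 other libraries for 16, with 8.84 % of all genes. Of the 45 members outside the runs, 35 were lower, 11 by at least 15 % and 5 below all 5 others, with a median of 6.95 %. The stretch between the runs had a HiSeq median of 6.89 %. The most telomeric 11 members, from MED13L to CIT, differed between the tables, with a median of 3.52 % in NextSeq and of 20.6 % in HiSeq. In the 1p pair the run medians were 3.15 and 5.08 %, and in the 8p clone a 1.31 % rise and a 2.38 % reduction.

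**Figure D3:**
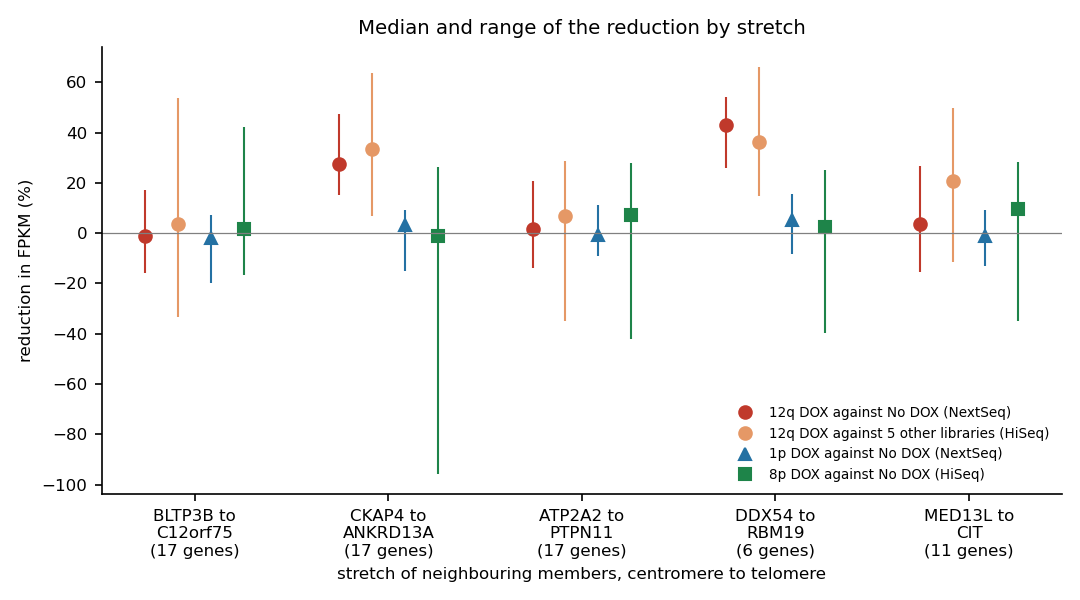
Median (symbols) and range (lines) of the reduction in FPKM (%) for the 5 stretches of neighbouring members, from the centromeric to the telomeric end of the window, in 4 comparisons. The stretches CKAP4 to ANKRD13A and DDX54 to RBM19 are highest in both 12q comparisons, with NextSeq medians of 27.4 and 43.1 %.

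The pattern differed between the sides of the site. Within 2.5 Mb the NextSeq median reduction was 28.1 % over 10 members on the centromeric side and 3.57 % over 20 on the telomeric side. From 2.5 to 5 Mb the order turned, with 11.8 % over 7 centromeric and 40.3 % over 7 telomeric members. Beyond 5 Mb no member was in the 30 to 60 % range in NextSeq, and the median was 6.44 % over 6 members up to 7.5 Mb and a 2.17 % rise over 18 members further out. HiSeq gave the same order of the sides up to 5 Mb, with medians of 32.5 and 10.1 % and then of 11.3 and 36.0 %. Beyond 5 Mb it differed, as NT5DC3, HSPB8 and PRKAB1 were in the range there, and the telomeric medians were 17.9 % over 4 members and 24.1 % over 7. The correlation of reduction with distance across the members was rho = -0.40 in NextSeq and -0.23 in HiSeq. With the level with No DOX rho was -0.099, and the median reduction was 5.85, 10.5 and 5.50 % in members of low, middle and high level. With the length of the gene rho was 0.042.

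FAM222A, the host gene, was itself too low to be a member. It was 0.709 FPKM with No DOX and 0.0633 FPKM with DOX in the NextSeq 12q pair, but 0.540 FPKM in the HiSeq 12q DOX library, and 0.353 and 0.350 FPKM in the 1p pair. Of the 8 members that flank it most closely, 4 on each side, all were lower with DOX in the NextSeq pair (54.8 % of all genes). All were lower than the mean of the others in HiSeq (51.7 % of all genes). All but GIT2 were below each of the 5 others there (8.84 % of all genes). The nearest on the centromeric side is MMAB, the mitochondrial enzyme that makes adenosylcobalamin from vitamin B12, 0.179 Mb away. MMAB was 5.03 FPKM with No DOX and 3.13 FPKM with DOX in the 12q clone, against 5.14 and 5.03 FPKM in the 1p clone. In HiSeq it was 2.80 FPKM in the 12q library and 4.68, 5.37, 6.06, 6.27 and 6.49 FPKM in the others, so the 12q library lay below all of them (log2 difference -0.83, SE 0.24, limma adjusted p = 0.997). Next outwards were UBE3B, a ubiquitin ligase, KCTD10, an adaptor of cullin ubiquitin ligases, and ALKBH2, which repairs alkylated DNA, with reductions of 28.7, 26.8 and 22.2 %.

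The nearest on the telomeric side is GLTP, which transfers glycolipids between membranes, 0.123 Mb away. GLTP was 22.4 FPKM with No DOX and 15.5 FPKM with DOX in the 12q clone (30.9 % lower), against 39.4 and 36.2 FPKM in the 1p clone. In HiSeq the 12q library had 14.7 FPKM, just under the 15.1 FPKM of the vector library, and the 4 others had 23.6 to 25.8 FPKM. TCHP, a keratin-binding protein of the centrosome, GIT2, a GTPase-activating protein for ARF at focal adhesions, and ANKRD13A, which binds ubiquitin chains, followed with reductions of 17.4, 26.3 and 27.6 %. ANKRD13A was 10.9 FPKM in the HiSeq 12q library and 13.8 to 35.2 FPKM in the 5 others, a 59.1 % reduction. The size of this reduction rested on the 8p libraries, with 33.2 to 35.2 FPKM, as the 1p and vector libraries had 15.3 and 13.8 FPKM.

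Also in the first run were regulators of the actin cytoskeleton. SSH1, the phosphatase that activates cofilin, was 4.18 FPKM with No DOX and 2.21 FPKM with DOX in the 12q clone (47.2 % lower). It was higher with DOX in the 1p clone, at 5.60 and 6.45 FPKM. The HiSeq 12q library had 2.41 FPKM of SSH1 and the others 4.80, 5.09, 6.86, 7.94 and 8.61 FPKM, a reduction of 63.8 %, with no overlap (log2 difference -1.14, SE 0.33, limma adjusted p = 0.991). CORO1C, a coronin that binds actin filaments, was one of the 3 most abundant members by the HiSeq mean. CORO1C was 95.1 FPKM with No DOX and 60.8 FPKM with DOX in the 12q clone, and 143.7 and 137.2 FPKM in the 1p clone. In HiSeq it was 51.95 FPKM in the 12q library and 89.9, 96.7, 105.9, 109.8 and 126.9 FPKM in the others, again with no overlap (log2 difference -1.003, SE 0.26, limma adjusted p = 0.766).

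Further towards the centromere the first run held genes of other functions. PRDM4, a zinc finger transcription factor, was 10.1 FPKM with No DOX and 6.64 FPKM with DOX in the 12q clone (34.1 % lower), against 11.4 and 12.3 FPKM in the 1p clone. Its HiSeq value of 5.81 FPKM lay below the 7.39 to 9.29 FPKM of the other libraries. CKAP4, a membrane protein of the rough endoplasmic reticulum and the outermost gene of the run, was 81.9 FPKM with No DOX and 54.6 FPKM with DOX (33.4 % lower), and 119.1 and 121.4 FPKM in the 1p clone. In HiSeq the groups overlapped for CKAP4, with 41.5 FPKM in the 12q library and 39.6, 43.9, 45.6, 52.3 and 69.5 FPKM in the others. It was the only one of the 11 members in the 30 to 60 % range for which they did. CRY1, a repressor of the circadian clock, was 26.0 % lower in NextSeq and 50.7 % below the HiSeq mean. The latter rested on the 8p libraries, as CRY1 was 3.39 FPKM in the HiSeq 12q library, 3.03 and 3.88 FPKM in the 1p and vector libraries and 8.79 to 9.60 FPKM in the 3 libraries of the 8p site. PWP1, which acts in ribosome biogenesis, was 27.4 % lower in both tables, but its 18.3 FPKM in the HiSeq 12q library was not below the 18.1 FPKM of the vector library. TMEM263 was 17.4 % lower in NextSeq and 48.4 % lower in HiSeq, but its HiSeq baseline was uneven, since it rose from 9.26 FPKM to 18.1 and 18.1 FPKM with DOX in the 8p clone.

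The second run, more than 3 Mb from the site, held the members with the largest reductions. SLC8B1, the sodium/calcium exchanger of the inner mitochondrial membrane, was 12.9 FPKM with No DOX and 5.94 FPKM with DOX in the 12q clone, a reduction of 54.0 %. In the 1p clone it was 8.21 and 6.94 FPKM, which is 15.4 % lower with DOX and was the largest 1p reduction of any member. The HiSeq 12q library had 3.96 FPKM of SLC8B1 and the others 4.67, 5.10, 6.51, 7.39 and 7.71 FPKM. TPCN1, a cation channel of endosomes and lysosomes, was 8.47 FPKM with No DOX and 4.23 FPKM with DOX in the 12q clone (50.0 % lower), while it was 10.9 and 11.9 FPKM in the 1p clone. TPCN1 had the largest HiSeq reduction of the 68 members (65.9 %), with 3.40 FPKM in the 12q library and 7.79, 9.74, 10.6, 10.9 and 10.9 FPKM in the others.

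PLBD2, a lysosomal phospholipase B-like protein, was 12.7 FPKM with No DOX and 7.94 FPKM with DOX (37.5 % lower), against 10.4 and 11.3 FPKM in the 1p clone. Its HiSeq value of 8.06 FPKM lay below the 12.2, 13.6, 16.5, 18.7 and 18.8 FPKM of the others (log2 difference -0.89, SE 0.30, limma adjusted p = 1.00). RITA1, which exports the Notch effector RBPJ from the nucleus, was 16.8 FPKM with No DOX and 9.10 FPKM with DOX in the 12q clone, a reduction of 46.0 %. In the 1p clone RITA1 was 17.6 and 16.9 FPKM, and in HiSeq it was 8.94 FPKM in the 12q library and 12.1 to 17.3 FPKM in the others. DDX54, a nuclear RNA helicase, was 17.8 FPKM with No DOX and 10.6 FPKM with DOX (40.3 % lower), and 15.6 and 14.6 FPKM in the 1p clone. The HiSeq values of DDX54 were 18.9 FPKM in the 12q library and 23.5 to 29.8 FPKM in the others. RBM19, which acts in ribosome biogenesis, closed the run with 25.7 % in NextSeq and 14.6 % in HiSeq, where the groups overlapped.

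**Figure D4:**
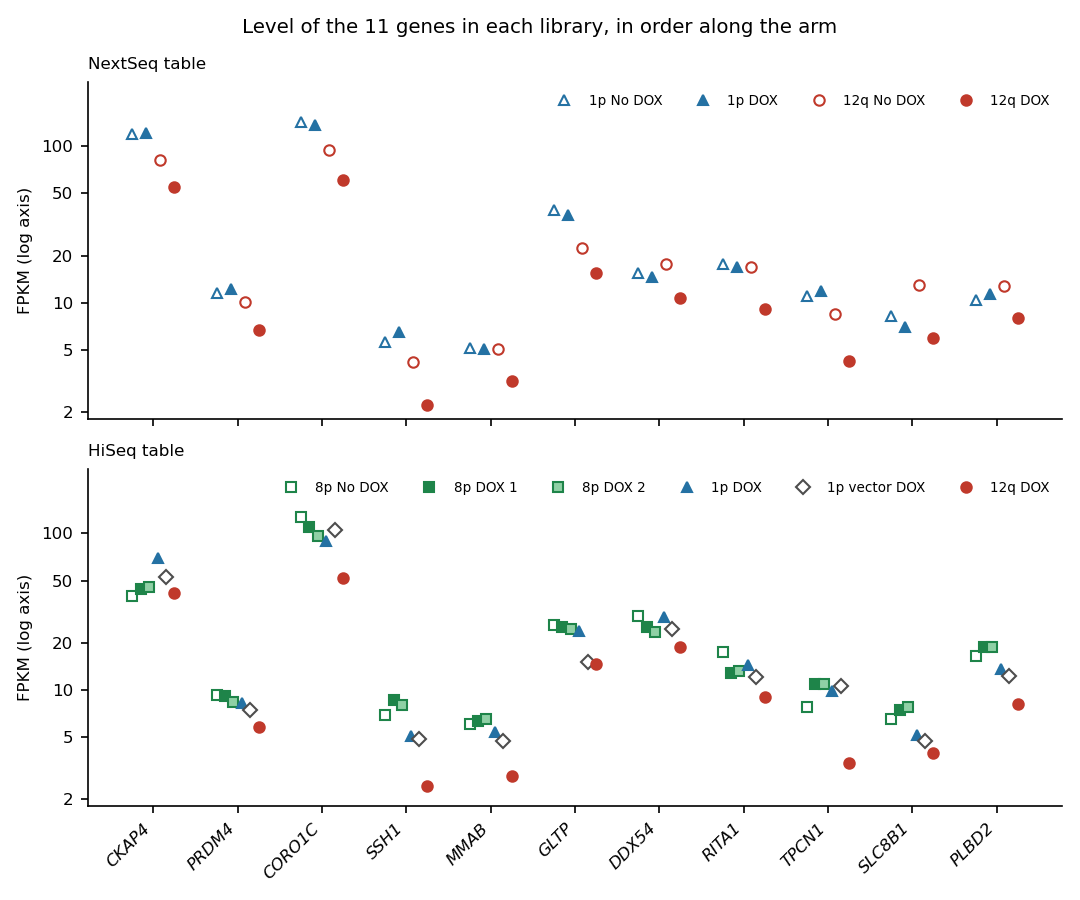
FPKM (log axis) of the 11 members in the 30 to 60 % range, in order along the arm, with the 4 NextSeq libraries above and the 6 HiSeq libraries below, 1 symbol per library. The filled red circle of 12q DOX is the lowest symbol for every gene in NextSeq, and in HiSeq for all but CKAP4.

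Taking the 11 members as a set, 11 of 11 were lower in the HiSeq 12q library (51.7 % of all genes). Of these, 9 were lower by at least 30 % (8.01 % of all genes), and 10 lay below all 5 other libraries (8.84 % of all genes). Of the other 57 members, 47 were lower, 8 by at least 30 % and 11 below all 5. In the 1p clone the 11 ranged from a 15.2 % rise to a 15.4 % reduction, and in the 8p clone from a 39.6 % rise (TPCN1) to a 25.0 % reduction (RITA1).

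Several members start back to back with a neighbour. In RefSeq (GRCh38.p14), which had a promoter window, 250 bases before to 50 after the gene start, for 60 of the 68 members, the windows of 4 such pairs overlapped. They are shown because each pair reads outwards from the same DNA and the pairs lie in different stretches. PARPBP and NUP37 lie far on the centromeric side, UBE3B and KCTD10 next to the site, FAM216A and GPN3 between the runs and RITA1 and DDX54 in the second run. The windows are those of the first-named gene of each pair, on the plus strand, at chr12:102120129-102120428, chr12:109477384-109477683, chr12:110468595-110468894 and chr12:113185471-113185770. Capitals mark the bases shared with the window of the partner, which is read from the opposite strand.
PARPBP and NUP37: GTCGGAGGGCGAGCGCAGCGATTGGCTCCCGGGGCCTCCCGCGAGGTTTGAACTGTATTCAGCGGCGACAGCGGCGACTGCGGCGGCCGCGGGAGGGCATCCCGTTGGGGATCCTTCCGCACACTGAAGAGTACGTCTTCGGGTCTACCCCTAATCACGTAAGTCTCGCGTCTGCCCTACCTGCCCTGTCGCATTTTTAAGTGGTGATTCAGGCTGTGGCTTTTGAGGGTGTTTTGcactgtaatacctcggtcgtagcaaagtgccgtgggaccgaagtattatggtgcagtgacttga
UBE3B and KCTD10: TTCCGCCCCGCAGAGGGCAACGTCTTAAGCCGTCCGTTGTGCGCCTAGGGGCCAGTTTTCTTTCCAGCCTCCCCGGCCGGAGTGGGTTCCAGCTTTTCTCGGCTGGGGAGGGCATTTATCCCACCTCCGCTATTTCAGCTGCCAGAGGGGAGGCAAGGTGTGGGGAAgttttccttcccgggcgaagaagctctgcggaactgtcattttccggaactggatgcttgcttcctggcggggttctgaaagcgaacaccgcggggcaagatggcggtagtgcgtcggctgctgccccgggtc
FAM216A and GPN3: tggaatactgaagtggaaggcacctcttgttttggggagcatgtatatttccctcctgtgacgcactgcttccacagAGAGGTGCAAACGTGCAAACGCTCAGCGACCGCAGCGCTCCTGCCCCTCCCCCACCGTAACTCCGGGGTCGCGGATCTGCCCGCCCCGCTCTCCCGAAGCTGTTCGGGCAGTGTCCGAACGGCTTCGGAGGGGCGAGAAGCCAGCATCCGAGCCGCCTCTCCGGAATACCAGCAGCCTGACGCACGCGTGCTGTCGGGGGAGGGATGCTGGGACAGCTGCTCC
RITA1 and DDX54: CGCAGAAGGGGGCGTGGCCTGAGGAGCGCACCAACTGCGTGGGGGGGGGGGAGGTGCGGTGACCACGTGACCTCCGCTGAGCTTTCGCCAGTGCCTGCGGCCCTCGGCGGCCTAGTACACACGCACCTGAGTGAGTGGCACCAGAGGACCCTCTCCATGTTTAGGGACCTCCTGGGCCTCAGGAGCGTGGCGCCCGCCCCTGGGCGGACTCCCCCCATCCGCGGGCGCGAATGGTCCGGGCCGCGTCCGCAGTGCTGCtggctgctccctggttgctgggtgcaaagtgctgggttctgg

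The shared stretches were 236, 167, 223 and 258 bases long. PARPBP, which acts in recombination, and NUP37, a nuclear pore protein, were 10.6 and 5.34 % higher with DOX in the NextSeq 12q pair. UBE3B and KCTD10 were 28.7 and 26.8 % lower. FAM216A was 13.6 % and GPN3, a GTPase of RNA polymerase assembly, 5.64 % lower, and RITA1 and DDX54 were 46.0 and 40.3 % lower. In HiSeq the pairs gave a 0.233 % rise and a 2.43 % reduction, reductions of 34.4 and 17.6 %, of 14.2 and 0.965 %, and of 36.0 and 28.6 %. FAM216A and GPN3 also overlap by 295 bp in the table, and their counts may not be separable. The number of CG dinucleotides per window had a median of 31 for the 11 members in the range and of 30 for the other 49 with a window, beside 29 for 6124 genes of the same level and 16 for 27305 symbols in all.

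Members that did not share in the lower levels were found on both outer sides and between the runs. The 5 largest rises in the NextSeq 12q pair were those of ACTR6, a subunit of the SRCAP chromatin remodeller (15.9 %), HSPB8, a small heat shock protein (15.5 %), TRAFD1, a regulator of innate immune signalling (14.0 %), MAP1LC3B2, a near copy of the autophagy gene MAP1LC3B (13.8 %), and BLTP3B, a lipid transfer protein (12.0 %). All 5 were within the 18.9 % by which the 8p DOX libraries differed at most. That spread is of HiSeq libraries of another site, and the error of the NextSeq pair itself is not known. MAP1LC3B2 shares most of its sequence with MAP1LC3B, so its reads may not be separable from that gene. HSPB8 went the other way in HiSeq, where it was 5.18 FPKM in the 12q library and 7.05 to 14.1 FPKM in the others. VPS29, a subunit of the retromer, was 54.1 FPKM with No DOX and 54.0 FPKM with DOX in the 12q clone. It was 41.1 and 40.7 FPKM in the 1p clone, and in HiSeq 40.9 FPKM in the 12q library against 21.6 to 37.3 FPKM in the others, so that it was higher in the 12q libraries of both tables without moving with DOX. NT5DC3, a nucleotidase-like protein, was at the lower end in both, with 3.65 and 3.43 FPKM in the 12q pair and 5.77 and 6.20 FPKM in the 1p pair, and 3.53 FPKM in the HiSeq 12q library against 6.01 to 11.5 FPKM.

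By the mean of the HiSeq libraries the most abundant members were ARPC3, a subunit of the actin-nucleating Arp2/3 complex, CORO1C and PEBP1, an inhibitor of RAF kinase. ARPC3 was 230.3 FPKM with No DOX and 245.1 FPKM with DOX in the 12q clone, and 241.3 and 243.2 FPKM in the 1p clone. PEBP1 was 88.3 and 90.6 FPKM in the 12q clone and 86.4 and 87.5 FPKM in the 1p clone. In both pairs these 2 genes differed by less than 10 % with DOX. Of the genes for which the study designed allele assays in this region, WSB2, a substrate receptor of ubiquitin ligases 8.30 Mb away, was 20.9 FPKM with No DOX and 17.0 FPKM with DOX in the 12q clone (18.6 % lower), and 27.6 and 25.9 FPKM in the 1p clone. POLR3B, a subunit of RNA polymerase III, had a HiSeq mean of 3.36 FPKM and so was no member. It was 4.99 FPKM with No DOX and 2.99 FPKM with DOX in the 12q clone (40.1 % lower) and 12.4 % lower in the HiSeq 12q library.

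The members were also grouped by function, in lists written with earlier results of the data known, and no test compares the groups. Of 3 members in ion and calcium transport, SLC8B1 and TPCN1 were in the 30 to 60 % range and ATP2A2, the calcium pump of the endoplasmic reticulum, was 5.35 % lower. Of 14 in transcription and RNA metabolism, 12 were lower and 3 in the range (PRDM4, DDX54 and RITA1), with a median reduction of 19.8 %. Of 8 in the ubiquitin system, 5 were lower and 0 in the range, with a median of 22.6 % and extremes at UBE3B (28.7 % lower) and TRAFD1 (14.0 % higher). Of 6 in actin and cell shape, 5 were lower and 2 in the range (CORO1C and SSH1), with a median of 18.6 %. The median of all 68 members was 8.20 %. Of all genes, 54.8 % were lower and 3.4 % in the range.

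Of 12 members in vesicle traffic, endosome and lysosome, 6 were lower and 6 higher, with a median rise of 0.362 %, although CKAP4, GLTP and PLBD2 were in the range. Of 7 in mitochondria and metabolism, 6 were lower and MMAB was in the range, with a median reduction of 7.04 %. Of 7 kinases, phosphatases and signalling adaptors, 4 were lower and 0 in the range, with a median of 1.56 %, and SH2B3, an adaptor that restrains cytokine signalling, was the most reduced at 20.9 %. Of 3 in protein folding and N-terminal acetylation, NAA25 was 2.63 % lower, and ERP29, a chaperone of the endoplasmic reticulum, and HSPB8 were 9.34 and 15.5 % higher. In DNA repair, ALKBH2 was 22.2 % lower and PARPBP 10.6 % higher. The members of each list lie at different places on the arm, and position and function cannot be told apart in so few genes.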

How the data were processed

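RNA of HT1080 clones was sequenced in 6 HiSeq libraries, with paired 50 bp reads, and 4 NextSeq libraries. The deposited values are FPKM per gene, which the authors made with TopHat (with Bowtie) on hg18 and Cufflinks; versions are not given in the sources used here. ChIP-seq samples of the 8p clone were not used here. Rows whose symbol recurred or had become a date were dropped, and 22892 genes of the HiSeq and 25606 of the NextSeq table remained. NextSeq values were matched by symbol (65 members) or older symbol (3). Positions were read from the HiSeq table.

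Percent reduction was 1 minus the ratio of FPKM. Log2 ratios used a pseudocount of 1. Backgrounds were all genes with a HiSeq mean of at least 5 FPKM. limma 3.58.1 in R 4.3.3 (lmFit, eBayes with trend) was fitted to genes of at least 1 FPKM and tested on simulated data. Python 3.11.15 was used for the rest. p-values measure only the spread between these libraries, which may be technical.

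Members and lists were chosen with earlier results of these data known. Genes named are those reduced by 30 to 60 %, the 5 largest rises, the 4 nearest on each side, the 3 most abundant, those with allele assays, and those that give a list's range. Further genes (CRY1, PWP1, TMEM263, RBM19, VPS29, NT5DC3, NOPCHAP1, WASHC4, GNPTAB, UTP20, PARPBP, NUP37, FAM216A, GPN3) were named after their values were seen. Some symbols were left out by the rule and are not reported here.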

Additional observations from a re-analysis of the deposited data

Results flagged for a closer look

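The log2 ratio of the median member with DOX, relative to all genes, had another sign in the 12q clone than in the others. It was -0.098 in the 12q clone. It was near 0 in the 1p clone of the same table, at 0.0097, and 0.037 and 0.021 with each 8p DOX library in the other table, so neither showed a rise. The 8p value turned to -0.022 at a HiSeq mean of at least 10 FPKM. These differences were not tested.

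Of the 11 members reduced by 30 to 60 % in the 12q clone, 5 were higher with DOX in the 1p clone. This is near the share of all genes, as 3534 of 7435 genes and 35 of the 68 members were higher there. The count therefore does not set these members apart. CKAP4 was 33.4 % lower in the 12q clone and 1.93 % higher in the 1p clone. PRDM4 was 34.1 % lower and 7.35 % higher. SSH1 was 47.2 % lower and 15.2 % higher. TPCN1 was 50.0 % lower and 8.50 % higher. PLBD2 was 37.5 % lower and 8.48 % higher. None of these differences was tested, and the 1p rises were within the 19.7 % that members reached there.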

How the results depend on the processing

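The 11 members in the 30 to 60 % range in the NextSeq 12q pair became 6 of 37 at a HiSeq mean of at least 10 FPKM and 20 of 96 at 1 FPKM, since fewer or more genes are then tested. They became 22 with a limit of at least 20 %, and 22 with the 1p libraries as the baseline, an alternative chosen after seeing the data. With that baseline the median log2 ratio was -0.28 in place of -0.098. The HiSeq 12q library used in its place, also chosen afterwards, gave 15. In HiSeq the 15 members in the range became 7 at 10 FPKM and 29 at 1 FPKM, and 15 to 17 without each of the other libraries, with a median log2 difference of -0.207 to -0.176. In the 8p clone the 2 members became 0 at 10 FPKM, 5 at 1 FPKM, 1 when rescaled to the median gene and 12 at 20 %, and 2 to 3 without either DOX library. The 8p median turned to -0.022 at 10 FPKM. In the 1p clone the count was 0 under every alternative. The share of all genes in the range was not computed for the alternative filters, limits and baselines. These counts can therefore not be read against a background. limma called 0 members under each of its 10 alternatives (4 to 13 lower and 0 to 1 higher at an unadjusted p of at most 0.05), while its calls over all genes ranged from 7 to 539. The 539 came without a filter on low values, which adds genes to the test. Of 153 alternatives for single genes 139 were labelled the same, 14 moved and 0 reversed. For the limma differences the same meant only an equal sign and call. As limma called no member, that label says little. Only the NextSeq values were set against the spread between the 8p DOX libraries of HiSeq, and all 14 that moved past it were among these. With the mean of the 3 other NextSeq libraries as the baseline, SLC8B1 went from 54.0 to 36.5 % and GLTP from 30.9 to 52.5 %. No paired analysis was possible because no comparison has 2 libraries per condition that share numbers. The depth behind the FPKM is unknown, so low genes such as FAM222A, MMAB and SSH1 carry an error that cannot be given.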
